A study of Rattus norvegicus with 4 samples.

Results

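A group of 6 voltage-gated potassium (Kv) channel genes was followed in cultured rat cortical neurons, resting and depolarized: Kcnb2, Kcnc1, Kcnc2, Kcnd2, Kcnd3 and Kcnf1. They were chosen by the gene symbol in the platform annotation, which gave them 13 probe sets, and they are 6 of the 720 genes to which that annotation gave a probe set with a single symbol. The neurons came from rat cortex at embryonic day 17 and had been in culture for 14 days. Control cultures received phosphate-buffered saline for 4 h, and KCl cultures received 25 mM KCl for the same 4 h, with 2 Affymetrix arrays per group. Arrays carry the names of their titles: control 1 and control 2, then KCl 1 and KCl 2. The labels give all 4 samples, the KCl ones too, one description of an unstimulated state, so the groups rest on the titles and treatment protocols. The labels do not state whether the arrays of 1 group stem from different cultures, and the p-values therefore cover the spread between these arrays alone, which may be technical.

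Kv channels are tetramers that open on depolarization and carry potassium out of the cell, which ends action potentials and sets the interval to the next one. Kv2 channels (the Kcnb genes) give the slow delayed-rectifier current of the soma, Kv3 channels (Kcnc) open and close fast and are used by fast-spiking inhibitory interneurons, and Kv4 channels (Kcnd) carry the transient A-type current of dendrites. Kcnf1 encodes a modulatory, or silent, subunit that gives no current alone and joins Kv2 subunits in mixed channels. Raised extracellular potassium depolarizes neurons and lets calcium in, and the comparison asks which transcripts respond.

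The values are deposited probe set intensities in arbitrary units. Background was taken from 19 control probe sets that match transcripts of bacteria and yeast. Their median was 9.05 and their highest value on any array was 73.7. A value at or below 73.7 is called within background here. Probe sets differ in how well their probes bind, so intensities are compared between arrays for one probe set and not between probe sets. The treatment was visible on the arrays: Fos, an immediate-early gene, read 720 and 646 in the controls and 9744 and 9883 after KCl. Junb, Nr4a1, Egr1 and Bdnf passed as higher too, each on its brightest probe set. Their other tested probe sets passed as well, except Egr1 U75398_s_at (log2 change 0.26), Bdnf S71201mRNA_at (−0.07) and Bdnf S76799_at (0.17). With an ordinary t statistic 0 of these 5 genes passed. Replicate arrays correlated with a Pearson r of 0.968 (control pair) and 0.967 (KCl pair) over the log2 values of 947 probe sets, which are not independent replicates.

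Of the 13 channel probe sets, 10 were bright enough to be tested, and 2 passed: Kcnf1 rose and 1 probe set of Kcnc2 fell. The other 8 tested did not pass, and 3 were too dim to be tested. Over all 947 probe sets tested, 5.49% passed as higher and 5.28% as lower after KCl, 10.8% in all (limma, Benjamini-Hochberg adjusted p below 0.05). An unadjusted p below 0.05 was reached by 5 of the 10 tested, against 25.6% of all tested. The median log2 change of the 10 was −0.47, and that of all probe sets tested was −0.10.

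**Figure D1:**
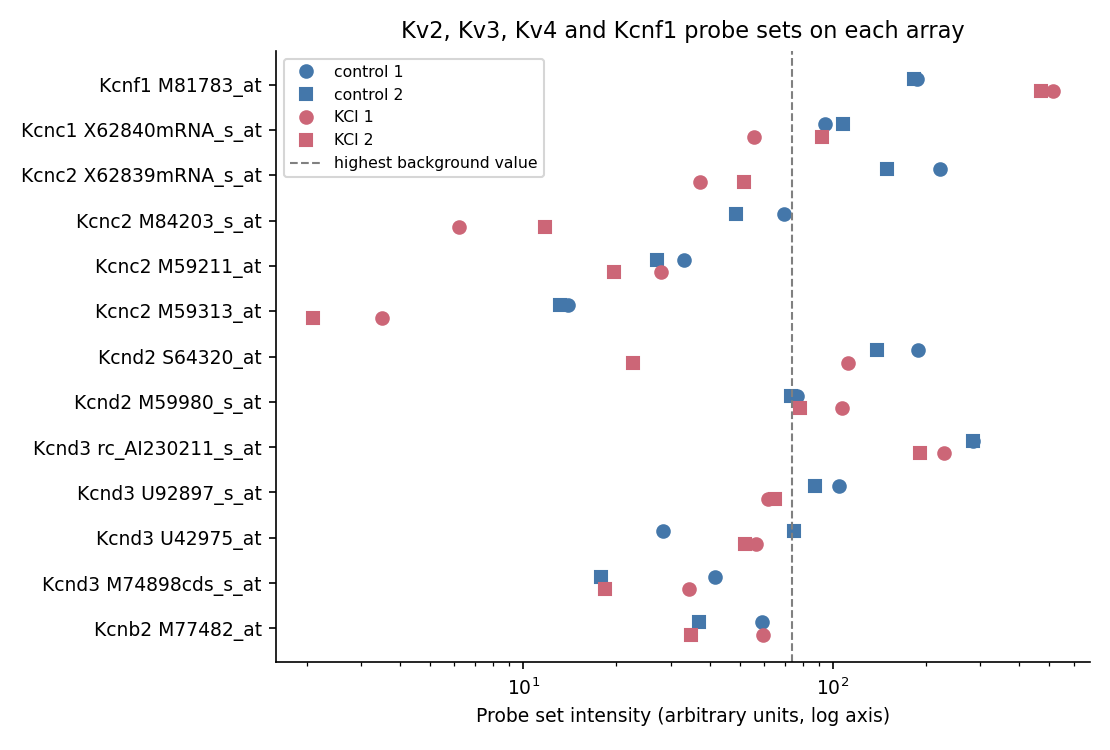
Intensity (arbitrary units, log axis) of each of the 13 probe sets on each of the 4 arrays, with circles for replicate 1 and squares for replicate 2 of a group and a dashed line at 73.7, the highest background value. The Kcnf1 points after KCl (470.4 and 513.7) lie far to the right of the controls, and those of 3 of the 4 Kcnc2 probe sets lie to the left of both controls.

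Resting levels are given by subfamily as the number of probe sets that stood clear of background. In the controls, 6 of the 13 probe sets were above 73.7 on both arrays, 2 on 1 array and 5 on neither. Kcnf1 was clear on its single probe set. Of the 5 Kv3 probe sets, 2 were clear, those being the one of Kcnc1 and 1 of 4 for Kcnc2. Of the 6 Kv4 probe sets, 3 were clear, 1 of 2 for Kcnd2 and 2 of 4 for Kcnd3. The probe set of Kcnb2 was within background on all 4 arrays. After KCl, 3 of the 13 were above background on both arrays, and these belonged to Kcnf1, Kcnd2 and Kcnd3. A probe set within background does not show that its transcript was absent, only that its signal could not be told from that of the bacterial and yeast probe sets.

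Kcnf1, the modulatory subunit (Kv5.1), rose after KCl and was the only one of the 10 tested channel probe sets that passed as higher. Its probe set M81783_at read 186.8 on control 1, 183.6 on control 2, 513.7 on KCl 1 and 470.4 on KCl 2. Both KCl values lay far above both controls, and the replicates of each group were close to each other. The rise was 2.65-fold, from 185.2 ± 2.26 to 492.1 ± 30.6 (SD, n = 2 arrays per group), which is 1.41 ± 0.16 in log2 (SE; limma adjusted p = 0.00094). Leaving out 1 array at a time gave log2 changes between 1.34 and 1.47. The call itself was lost without control 1 (log2 change 1.42), without control 2 (1.40) and with an ordinary t statistic (adjusted p = 0.14). Fits that leave 1 array in a group take the spread from the other group alone and give no firm p-value. Over the alternatives that kept every array, the adjusted p ran from 0.00071 (limma, pseudocount of 32) to 0.14 (ordinary t statistic).

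Kcnc2, which encodes the fast channel subunit Kv3.2, was lower after KCl on its brightest probe set. X62839mRNA_s_at read 222.1 on control 1, 149.2 on control 2, 37.2 on KCl 1 and 51.5 on KCl 2. The controls were clear of background and both KCl values were within it, with no overlap between the groups. The measured fall was 4.16-fold, from 185.6 ± 51.5 to 44.4 ± 10.1 (SD, n = 2 arrays per group), which is −2.06 ± 0.34 in log2 (SE; limma adjusted p = 0.0069). With the KCl values taken at 73.7, the top of the background, Kcnc2 was 2.47-fold lower. The fit on these values gave −1.30 ± 0.23 in log2 (SE; limma adjusted p = 0.031). Both KCl values are then the same number and add no spread, and the 2 controls differed 1.49-fold from each other. In a whole culture, fewer cells that express a gene and less RNA in each of them cannot be told apart. The call was lost without the intensity trend (limma adjusted p = 0.069) and with an ordinary t statistic (adjusted p = 0.29). It was also lost without control 1 and without control 2. Over the alternatives that kept all 4 arrays, the adjusted p ran from 0.0057 (limma, pseudocount of 32) to 0.29.

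The other 3 Kcnc2 probe sets were dim, within background on all 4 arrays, and all had lower means after KCl. M84203_s_at read 69.4 and 48.7 in the controls and 6.2 and 11.8 after KCl, with a log2 change of −2.76 ± 0.86 (SE) that did not pass (limma adjusted p = 0.08). It lay just inside the limit for testing, with a mean of 34.0 against 33.3, and passed with no filter (limma adjusted p = 0.036) and with a pseudocount of 32 (0.046), within a range of 0.036 to 0.31 over its 11 alternatives. M59313_at, too dim to be tested, read 14.0 and 13.2 in the controls and 3.5 and 2.1 after KCl. M59211_at, also untested, read 33.2 and 27.1 in the controls and 27.8 and 19.6 after KCl. The groups did not overlap on 3 of the 4 probe sets and overlapped on M59211_at. These 4 probe sets read one gene on the same arrays and are not replicates of its change, and the values of these 3 dim ones carry no reliable fold.

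The letters upstream of the 2 genes that passed are shown because the transcription factors raised in these cultures, Fos, Junb and Nr4a1, have known DNA elements that can be looked for there. They are the 250 bases before the annotated start, from RefSeq on build GRCr8, 5′ to 3′ on the strand of the gene. The Kcnf1 window is chr6:45693707-45693956 on the minus strand, and the Kcnc2 window, 1 of 2 overlapping ones for that gene, is chr7:49587364-49587613 on the plus strand.
Kcnf1: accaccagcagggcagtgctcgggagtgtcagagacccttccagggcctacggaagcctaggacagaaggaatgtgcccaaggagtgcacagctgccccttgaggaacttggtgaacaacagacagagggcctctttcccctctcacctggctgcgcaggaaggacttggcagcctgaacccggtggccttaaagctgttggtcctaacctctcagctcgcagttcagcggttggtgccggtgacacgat
Kcnc2: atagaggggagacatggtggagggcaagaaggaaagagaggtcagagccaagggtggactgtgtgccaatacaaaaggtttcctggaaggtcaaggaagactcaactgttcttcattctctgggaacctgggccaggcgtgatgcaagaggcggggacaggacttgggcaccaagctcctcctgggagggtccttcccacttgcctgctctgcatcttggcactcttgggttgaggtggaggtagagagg
Both strands were searched for the full cAMP-responsive element (TGACGTCA), its shorter core (TGACG, which lies inside the full element), the AP-1 site (TGANTCA) and the NBRE bound by Nr4a factors (AAAGGTCA). The cAMP-responsive element and its core were searched in addition to the elements of Fos, Junb and Nr4a1. Capitals would mark a match, and there was 0 in either sequence. There was likewise none in the windows of Kcnc1, Kcnd2 and Kcnd3, and Kcnb2 had no entry. Among all 33469 RefSeq promoter windows of this length, 1.59% held TGACGTCA, 18.2% TGACG, 6.34% TGANTCA and 1.24% AAAGGTCA. The absence of a match says only that these letters are not in these windows. The window was 59.6% G or C for Kcnf1 and 56.0% for Kcnc2, against a median of 51.2% over all windows.

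Kcnc1, the other Kv3 gene of this group (Kv3.1), did not pass. Its probe set X62840mRNA_s_at read 94.7 and 107.8 in the controls and 55.7 and 92.5 after KCl. Both KCl values were below both controls, KCl 2 only slightly, and KCl 1 was within background. The log2 change was −0.49 ± 0.35 (SE; limma adjusted p = 0.43). The Kcnc2 change was larger in size than that of Kcnc1 by 1.56 ± 0.40 in log2 as measured (SE, n = 2 arrays per group) and by 1.01 with values below 73.7 set to 73.7, so its size is uncertain. An exact two-sided permutation test of this within-array difference gave p = 0.333, the smallest that 2 arrays against 2 allow, on either scale. Kcnc4, the Kv3.4 gene outside this set, was at −0.28 ± 0.27 in log2 (SE, not passing, limma adjusted p = 0.55). Kcnc2 was lower relative to Kcnc4 by 1.02 in log2 with the KCl values of Kcnc2 taken at 73.7. As measured the difference had an exact permutation p of 0.333, and the comparison was chosen after the values were seen.

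**Figure D2:**
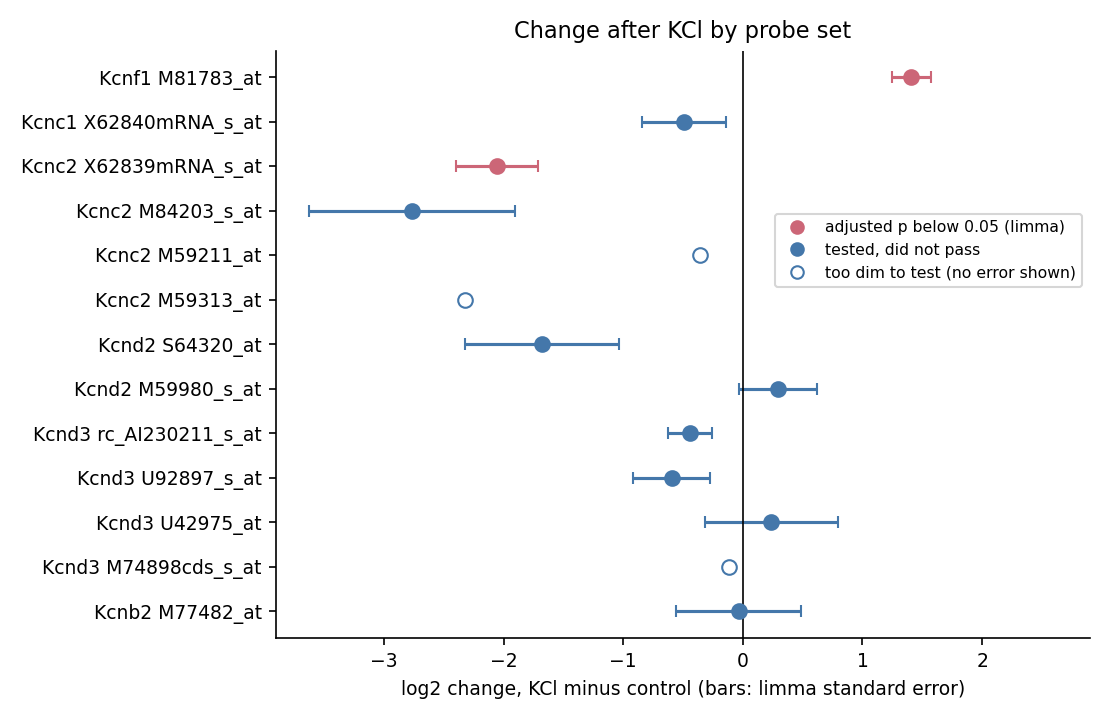
log2 change after KCl (KCl minus control) of each of the 13 probe sets, with bars of 1 limma standard error for the 10 tested and open points for the 3 too dim to be tested. Red marks the 2 that passed, Kcnf1 at 1.41 and Kcnc2 X62839mRNA_s_at at −2.06; the probe sets of Kcnd2 lie on opposite sides of 0.

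Of the 5 tested Kv4 probe sets 0 passed in limma, and 2 reached an unadjusted p below 0.05, both with lower means after KCl. Kcnd2 encodes Kv4.2, a main A-type channel of pyramidal cell dendrites, and its probe sets went opposite ways. S64320_at read 187.9 and 139.1 in the controls and 112.2 and 22.7 after KCl. Both KCl values were below the controls, and they differed 4.94-fold from each other. The log2 change of −1.68 ± 0.64 (SE; limma adjusted p = 0.15) was −0.83 with the value of KCl 2, which is within background, taken at 73.7. It was −0.53 without KCl 2 and −2.83 without KCl 1. The change passed in the fit without KCl 1, which rests on KCl 2 alone and gives no firm p-value. Over the alternatives that kept every array, the adjusted p ran from 0.12 (limma, pseudocount of 32) to 0.54 (ordinary t statistic). M59980_s_at read 76.7 and 73.1 in the controls and 107.3 and 78.4 after KCl, near the top of the background. Its KCl values were above its controls, by little on KCl 2, and the log2 change was 0.29 ± 0.32 (SE; limma adjusted p = 0.62).

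Kcnd3 encodes Kv4.3, an A-type subunit that interneurons also use. Its brightest probe set, rc_AI230211_s_at, read 284.1 and 284.2 in the controls and 229.3 and 191.0 after KCl. All 4 values were clear of background and the KCl arrays were lower, with a log2 change of −0.44 ± 0.18 (SE) that had an unadjusted p of 0.0416 and did not pass (limma adjusted p = 0.18). U92897_s_at read 104.6 and 87.7 in the controls and 61.9 and 65.0 after KCl. Its KCl values were within background and below the controls, and the log2 change was −0.59 ± 0.32 (SE; limma adjusted p = 0.28). On U42975_at control 1 stood apart, with 28.3 against 74.9 on control 2, 56.7 on KCl 1 and 52.0 on KCl 2. M74898cds_s_at, too dim to be tested, read 41.8 and 17.8 in the controls and 34.4 and 18.4 after KCl. The 2 clearer probe sets of Kcnd3 were both lower after KCl and the 2 dimmer ones overlapped.

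Kcnb2, which encodes the Kv2.2 subunit, was not clear of background on any array. M77482_at read 59.0 and 37.0 in the controls and 59.7 and 34.8 after KCl. All values were within background and the groups overlapped almost wholly, and the log2 change was −0.04 ± 0.53 (SE; limma adjusted p = 0.97). An error of that size leaves room for a change in either direction.

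Over the 10 tested probe sets, the groups did not overlap on 6 that were lower and 2 that were higher after KCl. Among all 947 tested, 36.5% were lower without overlap and 21.4% higher, 58.0% in all. By subfamily, the 3 tested Kv3 probe sets were all lower without overlap, as were 3 of 5 for Kv4, while 1 of 5 for Kv4 (Kcnd2 M59980_s_at) and Kcnf1 were higher without overlap. The median log2 change of the tested probe sets was −2.06 for Kv3 and −0.44 for Kv4, and 2 of the 3 Kv3 values come from Kcnc2, whose KCl values were within background.

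**Figure D3:**
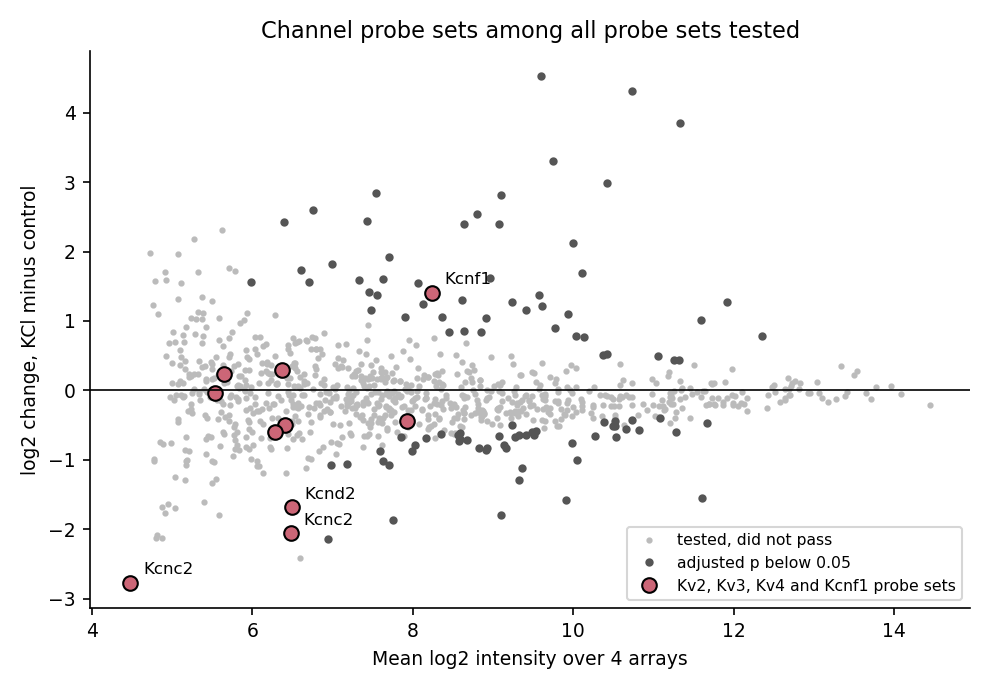
log2 change after KCl against the mean log2 intensity over the 4 arrays, for all 947 probe sets tested, with dark points for those that passed and red points for the 10 channel probe sets. Most channel probe sets lie in the dim left part of the plot, where few probe sets passed, and Kcnf1 lies at a middle level.

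The changes were compared between genes by taking the log2 difference of 2 brightest probe sets within each array, so that the scaling of an array cancels. There were 15 pairs among the 6 genes. With 2 arrays per group the exact two-sided permutation test has 6 arrangements and cannot give a p below 0.333; 10 pairs reached that value and none passed after adjustment over the 15 (smallest adjusted p 0.50). Kcnf1 and the brightest Kcnd3 probe set were above background on all 4 arrays, and there the change of Kcnf1 was above that of Kcnd3 by 1.85 ± 0.07 in log2 (SE, n = 2 arrays per group). The other pairs hold values within background, so their sizes are uncertain. The difference between Kcnc2 and Kcnf1 was −3.46 ± 0.41 as measured and −2.71 with values below 73.7 set to 73.7, and that between Kcnd2 and Kcnf1 was −3.09 ± 1.11 and −2.24. Between Kcnc1 and Kcnf1 these were −1.90 ± 0.44 and −1.70, and between Kcnc1 and Kcnd3 −0.05 ± 0.51 and 0.15. Kcnb2 was within background throughout. Its difference from Kcnf1 was −1.44 ± 0.46 as measured and −1.41 with values below 73.7 set to 73.7, where Kcnb2 has the same value on every array.

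No other tested Kv alpha subunit gene passed. The list of other Kv alpha subunits held 34 genes, of which 17 were tested, each by its brightest probe set. An ordinary t statistic gave 2 of the 17 an unadjusted p below 0.05, against 94 of all 570 genes tested. In limma 0 of the 17 passed and 4 reached an unadjusted p below 0.05, each with a lower mean after KCl. That is 23.5% of the list against 25.4% of all 570 genes tested (16.8% with a lower mean). The 4 were Kcnh3 (log2 change −0.39 ± 0.11, SE), Kcnh1 (−0.54 ± 0.19), both of the ether-a-go-go family, and the modulatory subunits Kcnv1 (−0.79 ± 0.25) and Kcns3 (−2.42 ± 0.81). The less bright probe set of Kcnh3 had a log2 change of 0.11. The median log2 change of the 17 was −0.28, that of the 6 genes here −0.47 and that of all 570 genes tested −0.09. Calls appeared under some alternatives. Kcnh3 passed as lower with a pseudocount of 32 and with the dimmest 50% left out. Kcnh3, Kcnv1 and Kcns3 passed as lower without KCl 2, and Kcns3 without KCl 1. Those last fits rest on 1 KCl array and on the spread of the control pair alone.

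None of the other 3 modulatory subunits tested passed as higher. Kcng1 read 179.7 and 177.7 in the controls and 149.6 and 160.7 after KCl, and Kcnv1 285.4 and 232.5 in the controls and 120.5 and 183.6 after KCl. Kcns3 read 273.9 and 183.4 in the controls and 14.6 and 120.7 after KCl, with KCl arrays far apart. The log2 change of Kcnf1 was above that of Kcng1 by 1.61 ± 0.12 (SE), above that of Kcnv1 by 2.20 ± 0.39 and above that of Kcns3 by 3.83 ± 1.61, or 2.66 with the KCl 1 value of Kcns3, which is within background, taken at 73.7. Each of these had an exact permutation p of 0.333, the smallest possible, and the 3 comparisons were chosen after the values were seen. Of the auxiliary subunits, 2 of 15 listed genes were tested. Kcnab1, which encodes a cytoplasmic Kv beta subunit, fell 2.03-fold, from 287.6 and 274.1 to 133.1 and 144.2 (limma adjusted p = 0.011), and did not pass without control 1, without control 2, without the intensity trend or with an ordinary t statistic (adjusted p from 0.069 to 0.19). Kcne1, a small membrane subunit, did not pass, at 0.68 ± 0.32 in log2 (SE; limma adjusted p = 0.22). The Kv4 partners of the Kcnip and Dpp families were not analysed here.

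Kcnc2 fell beside genes that inhibitory neurons use. Of 18 listed interneuron markers 7 were tested, and 4 fell, against 29 of all 570 genes tested. The 4 were Gad1, the GABA-synthesizing enzyme gene, Slc32a1, the vesicular GABA transporter gene, Sst (somatostatin) and Nxph1 (neurexophilin). The peptide genes Npy (0.23 in log2), Tac1 (−0.18) and Cck (0.11) did not pass. The second probe set of Slc32a1, at −1.09, did not pass either. The summed intensity of the 7 was 16097 to 16389 in the controls and 10800 to 11438 after KCl. Cck, which did not pass, and Sst, which fell, were its largest terms, so the sum does not weigh the 7 equally. Without control 1 and without control 2 the falls numbered 1 each, and 0 with an ordinary t statistic. Pvalb, the classic marker of fast-spiking cells, was not analysed here, and the part of the interneuron genes in the fall of Kcnc2 was not tested.

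Markers of other cells moved as well. Of 7 tested astrocyte markers 6 rose (Apoe, Slc1a3, S100b, Glul, Vim and Gja1), against 29 of all 570 genes tested. Sums over the 7 were 5220 to 5484 in the controls and 9974 to 12551 after KCl. None of the 7 passed without the intensity trend or with an ordinary t statistic. Other probe sets of Slc1a3 (1.60 in log2), Glul (0.53) and Apoe (1.01) passed as higher. Further ones of Slc1a3 (0.27 and 1.04), S100b (0.37) and Glul (0.41 and 0.52) did not. Gja1 was within background in the controls. Gja1 and Vim did not pass with values below 73.7 set to 73.7, or with quantile normalization. All 9 tested neuron markers read above background on every array, except Nefh on control 1 (63.0), with sums of 32421 to 33721 in the controls and 30836 to 31445 after KCl. Of the 9, 1 rose (Snap25, on its brightest probe set; 0.43 in log2, limma adjusted p = 0.032) and none fell. Snap25 did not pass with no filter, without the intensity trend, with an ordinary t statistic or without either control, and Syp passed as lower with quantile normalization. Oligodendrocyte markers (5 tested, sums 575 to 617 and 561 to 639), microglial and immune markers (2 tested, 55.2 to 60.6 and 80.4 to 84.7) and endothelial and fibroblast markers (1 tested, 76.9 to 80.9 and 129 to 131) held no gene that passed in limma, and 0, 0 and 1 of them reached an unadjusted p below 0.05 by limma, with the same counts from an ordinary t statistic. No tested marker was listed at 0 on any array. Gfap and Aqp4 were not analysed here. The 3′ over 5′ signal ratio of hexokinase was 2.25 and 2.00 in the controls and 2.49 and 2.67 after KCl, while those of GAPDH (1.17 to 1.23) and beta-actin (1.08 to 1.12) overlapped between the groups. The part of any of these in the channel results was not tested.

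**Figure D4:**
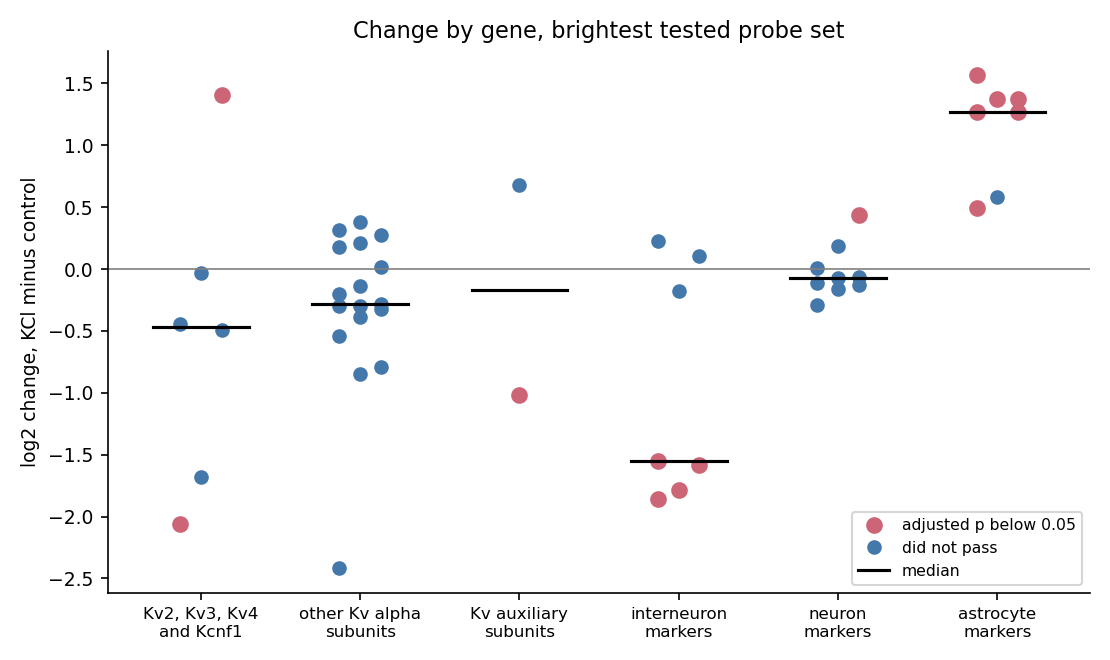
log2 change after KCl by gene, 1 point per gene for its brightest tested probe set, for the 6 channel genes and 5 lists, with bars at the medians and red for an adjusted p below 0.05. Kcnf1 (1.41) stands above all 17 other tested Kv alpha subunits (−2.42 to 0.38), and Kcnc2 (−2.06 as measured) lies near the interneuron markers that fell (−1.86 to −1.55). The KCl values of Kcnc2 were within background, so its place beside these markers is uncertain. With those values taken at the top of the background, its log2 change was −1.30, a smaller fall than that of each of these markers.

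The probe sets nearest to the 2 called channel genes were found by the Euclidean distance between log2 values over the 4 arrays, after the control mean of each was subtracted. For Kcnf1 they were Nr4a3, an orphan nuclear receptor gene, at 0.26 (148.9 and 164.1 in the controls, 454.7 and 463.3 after KCl), Apoe, the apolipoprotein E gene, at 0.32 and Cited2, a transcriptional regulator gene, at 0.35. All 3 passed as higher. For Kcnc2 they were Adra1d, an adrenergic receptor gene, at 0.31 (64.3 and 52.6 in the controls, 10.2 and 17.6 after KCl, all within background and not passing), Gad1 at 0.44 and Nxph1 at 0.57. Gad1 and Nxph1 passed as lower. The KCl values of Kcnc2 itself were within background, so its distances to these genes are uncertain. These distances describe 4 arrays in 2 groups and were drawn from 852 and 851 candidate probe sets.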

How the data were processed

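The labels' protocols describe 5 µg of total RNA per sample, turned into biotin-labelled cRNA for 1-colour Affymetrix arrays. The deposited values are linear probe set intensities; how they were summarised and scaled is not given in the sources used here. Their 2% trimmed means lay between 502.0 and 502.4, so they were used as scaled and taken to log2. Of 1322 probe sets, 59 controls and the dimmest 25% of the other 1263 by mean intensity (up to 33.3) were left out, which left 947. The annotation gave 1 symbol to 1137, several to 8 and none to 118 of the 1263.

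Groups were compared by limma (3.58.1, R 4.3.3; eBayes with intensity trend; two-sided), with Benjamini-Hochberg adjustment over the 947. Pairs of probe sets were compared by exact permutation (Python 3.11.15). The precision is limited by the number of arrays; the median SE was 0.53 for the 204 tested probe sets with means within background and 0.21 over all. On simulated arrays of this comparison (947 probe sets), 76% of changes of 1 and 97% of changes of 2 in log2 were recovered, and 3.35% of calls were false. The simulated spread followed intensity alone, as the intensity trend of the fit assumes. The rates hold for such arrays and may be better than those of the real ones, above all for dim probe sets. Named are all members, list genes that passed or had the 4 smallest p, the treatment genes and the 3 probe sets nearest to each called member; others were added after their values were seen. The members, lists and tests were chosen with earlier results of these data known. Same-numbered arrays did not deviate together (r = -0.032 across probe sets), so numbers were not taken as pairs. Alternatives changed the normalization, pseudocount, floor, filter, variance model, block and arrays used.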

Additional observations from a re-analysis of the deposited data

How the results depend on the processing

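Probe sets called higher numbered 52 and lower 50. Without the intensity trend they numbered 18 and 3, and with an ordinary t statistic 0 and 0 (157 with an unadjusted p below 0.05). Lower calls numbered 31 with quantile normalization, 33 with no filter and 15 with the replicate block, which left 35 higher. With each array left out in turn, higher calls ran from 10 to 72, lower calls from 1 to 106 and channel probe sets called from 0 to 3. Of the channel probe sets, 1 was called, Kcnf1, with the dimmest 50% left out (where Kcnc2 was not tested), with the replicate block and without the trend, and 0 with an ordinary t statistic, where 4 had an unadjusted p below 0.05.

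The log2 change of Kcnf1 (1.41) held its direction in all 13 alternatives and did not pass with an ordinary t statistic (1.41, adjusted p 0.14) or without either control array; left-out arrays gave 1.34 to 1.47. That of Kcnc2 X62839mRNA_s_at (-2.06) kept its direction in 12 and did not pass with the replicate block (-2.06, adjusted p 0.05, not below it), without the trend (-2.06, 0.069), with an ordinary t statistic (-2.06, 0.29) or without either control array (-2.34 to -1.77 over the arrays left out). Kcnc2 M84203_s_at passed with the pseudocount (-1.15) and with no filter (-2.76). Kcnd2 S64320_at ran from -2.83 to -0.53 over the arrays left out, and the low value of KCl 2 decided it.

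Values near 0 changed sign: Kcnb2 with quantile normalization (0.085) and over the arrays left out (-0.43 to 0.35, upward without control 1, 0.30), Kcnd3 U42975_at with the background floor (-0.012) and over the arrays left out (-0.46 to 0.94). Of the differences between genes, Kcnc1 minus Kcnd3 turned with the pseudocount (0.040) and the floor (0.15) and ran from -0.55 to 0.45 over the arrays left out; Kcnb2 minus Kcnc1 ran from -0.30 to 1.21, Kcnc2 minus Kcnd2 from -1.76 to 1.01 and Kcnc1 minus Kcnd2 from -0.33 to 2.70. The other 11 differences kept their direction. In these cases the cause was not tested, apart from fewer probe sets or arrays in the fit. With the floor, probe sets at it on every array were left out, a step added after the data were seen. With the replicate block Kcnab1 (adjusted p 0.056) and Snap25 (0.09) did not pass and astrocyte calls numbered 3. Values within background on all 4 arrays limit Kcnb2, 3 of 4 probe sets of Kcnc2 and 1 of 4 of Kcnd3, and the KCl values of the remaining Kcnc2 probe set are within it too.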
